A study of Homo sapiens with 8 samples.

Results

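The genes described here are 37 genes of cholesterol and fatty acid metabolism, of 27696 genes in the count table, each found by its gene symbol. They were set in 4 roles: 18 genes of the sterol branch, 9 of the fatty acid branch, 5 regulators and 5 genes named uptake and transport. Those 5, STARD4, NPC1, NPC2, ABCA1 and ABCG1, move cholesterol out of the lysosome, between membranes or out of the cell. None of them is an uptake receptor. IMR90 cells, a strain of primary human lung fibroblasts, spent 3 days in the conditioned medium of IMR90 ER:RAS cells, and their poly(A) RNA was sequenced. IMR90 ER:RAS cells carry an oncogenic RAS fused to an oestrogen receptor domain, which 4-hydroxytamoxifen (4-OHT) switches on, and the fusion drives the cells into senescence. The 4 groups, D0, D4, D7 and D10, stand for day 0, 4, 7 or 10 of 4-OHT in the cells that gave the medium, so the day is the age of the medium's source and not a time in the recipient cells. Each group has 2 libraries from 2 independent experiments, 8 in all, and replicate 1 or 2 is called experiment 1 or 2. Every group, D0 included, received medium from ER:RAS cells, and the general description of these assays has serum-free medium conditioned by the donor cells and a low serum level restored before use. The labels do not say whether the D0 donor cells had been given 4-OHT, and recipient cells outside this single strain are not part of the data.

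Cells make cholesterol from acetyl-CoA through the mevalonate pathway, squalene and lanosterol, and make fatty acids from the same acetyl-CoA, which are then desaturated and elongated. Both branches are switched on by the SREBP transcription factors: when membrane sterol is low, SCAP carries SREBP to the Golgi for cleavage, and when it is high, INSIG proteins hold the pair in the endoplasmic reticulum. Cholesterol taken up with lipoproteins leaves the lysosome through NPC2 and NPC1, is moved between membranes by proteins such as STARD4, and is exported by ABCA1 and ABCG1, which respond to oxysterols through LXR receptors.

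The promoters were examined because the branches are known to share SREBP and NF-Y, the factor that binds CCAAT. Windows from 250 bases before to 50 bases after the transcription start, from RefSeq on GRCh38.p14, were found for 32 of the 37 genes and not for FASN, FDFT1, SQLE, ABCG1 and ACAT2. Both strands were searched for CCAAT, for a sterol regulatory element written TCACNCCAC and for an E-box written TCACNTGA, where N is any base. None of these 3 words can lie inside another. The 250 bases before the start are printed below for genes that the results turn on, 5′ to 3′ on the gene's strand, with matches on either strand in capitals, so that a CCAAT on the other strand reads ATTGG. MVK, MVD and SCD are enzymes that fell at D10, and NPC1 rose. ACSS2 and FADS2 also fell and are not printed. ACSS2 holds 1 CCAAT in 1 window and 0 in another. The only CCAAT of FADS2 lies 5 to 9 bases after a start. INSIG1 and SREBF2 are regulators that hold an E-box or a sterol regulatory element.
MVK (chr12:109573544-109573793, plus strand): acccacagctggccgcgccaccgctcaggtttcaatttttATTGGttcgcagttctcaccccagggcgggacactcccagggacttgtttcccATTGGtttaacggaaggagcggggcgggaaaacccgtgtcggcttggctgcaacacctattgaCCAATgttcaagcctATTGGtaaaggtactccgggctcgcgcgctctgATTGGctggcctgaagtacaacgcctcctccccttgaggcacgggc
MVD (chr16:88663092-88663341, minus strand): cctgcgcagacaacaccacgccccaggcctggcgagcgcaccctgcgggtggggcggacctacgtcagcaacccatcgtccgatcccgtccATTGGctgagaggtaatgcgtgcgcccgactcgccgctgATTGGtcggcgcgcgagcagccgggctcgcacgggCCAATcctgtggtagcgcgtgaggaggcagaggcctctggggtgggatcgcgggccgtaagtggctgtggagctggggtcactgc
SCD (chr10:100346983-100347232, plus strand): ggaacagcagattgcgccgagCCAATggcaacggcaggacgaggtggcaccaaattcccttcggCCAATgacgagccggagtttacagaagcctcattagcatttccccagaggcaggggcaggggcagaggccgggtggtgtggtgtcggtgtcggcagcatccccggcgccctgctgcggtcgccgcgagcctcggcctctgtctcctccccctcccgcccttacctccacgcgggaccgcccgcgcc
INSIG1 (chr7:155297628-155297877, plus strand): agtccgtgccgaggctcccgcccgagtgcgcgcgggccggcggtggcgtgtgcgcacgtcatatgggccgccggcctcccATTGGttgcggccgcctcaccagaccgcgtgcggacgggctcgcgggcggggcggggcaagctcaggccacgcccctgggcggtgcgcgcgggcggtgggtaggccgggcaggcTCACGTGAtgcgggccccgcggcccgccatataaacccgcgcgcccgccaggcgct
SREBF2 (chr22:41832855-41833104, plus strand): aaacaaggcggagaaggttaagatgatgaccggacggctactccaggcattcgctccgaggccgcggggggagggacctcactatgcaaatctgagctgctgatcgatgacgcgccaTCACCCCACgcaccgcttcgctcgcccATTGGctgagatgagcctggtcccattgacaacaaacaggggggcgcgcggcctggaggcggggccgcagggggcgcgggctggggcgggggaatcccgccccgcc
NPC1 (chr18:23586507-23586756, minus strand): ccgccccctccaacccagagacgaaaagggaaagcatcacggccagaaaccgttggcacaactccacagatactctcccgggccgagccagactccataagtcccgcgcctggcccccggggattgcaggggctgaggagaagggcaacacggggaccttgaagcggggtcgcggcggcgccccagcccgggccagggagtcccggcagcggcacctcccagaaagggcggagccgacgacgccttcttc

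CCAAT was present in 13 of 15 sterol branch genes with a window (86.7%) and in 6 of 8 of the fatty acid branch (75%), against 39.7% of 27305 genes with a window of the same length. A gene counted if any of its windows held the word, and some genes have more than 1 window. The 27305 genes include genes whose expression was not tested here. Among regulators it was present in 2 of 5, and among uptake and transport genes in 2 of 4. Within a single window, MVK and NSDHL held 5 copies each and MSMO1 4, and the MVK copies lay between 210 and 42 bases before the start. IDI1, which has more than 1 window, held 3 and 2 in those with a match. NSDHL and IDI1 each hold CCAATTGG, which counts on both strands. The strict sterol regulatory element was found in 1 gene, SREBF2, from 133 to 125 bases before its start as TCACCCCAC, against 1.39% of all genes. The E-box was found in INSIG1, from 56 to 49 bases before the start as TCACGTGA, and in EBP, against 4.65% of all genes. These are matches of letters, and a gene with no match lacks only these words in this window. Whether they go with the direction of change was not tested. The genes with a window and no CCAAT were PMVK, CYP51A1, FADS1, ELOVL6, INSIG2, SREBF1, SCAP, NPC1 and ABCA1.

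Expression is given as CPM, counts per 1000000 of a library's total as scaled by edgeR's TMM method, and values listed from D0 to D10 are those of D0, D4, D7 and D10 in that order. Total counts were between 11708193 and 13395912 per library. The 37 genes took between 0.323% and 0.554% of them. The fibroblast label was checked with 9 fibroblast genes such as COL1A1 and DCN, whose CPM summed to between 17700 and 51000. Epithelial, endothelial, immune and adipocyte markers summed to at most 32 CPM in each library and list, and no marker in the table was at 0 in all 8 libraries. The lowest fibroblast sum was that of D10 in experiment 2, at 17700 against 42300 in D10 of experiment 1, and the part of this in the results below was not tested. These are bulk samples, so fewer cells that express a gene and less RNA per cell cannot be told apart. Changes are log2 fold changes from edgeR's quasi-likelihood test, fitted to all 8 libraries by group over 13798 genes, with Benjamini-Hochberg adjustment over all of them. Of the 37 genes 36 passed its filter on low counts, all but ABCG1. Because the libraries of an experiment deviated together, a second fit took the experiment as a replicate block, and a gene is said to have risen or fallen where that blocked test called it at an adjusted p under 0.05. D4, D7 and D10 were compared with the same D0 libraries, so these comparisons are not independent of each other.

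Most enzymes of both branches were lower with D10 than with D0 medium, while 4 of the 5 regulators had changes between -0.15 and 0.14 and NPC1, the lysosomal cholesterol exporter, was higher. The summed CPM of the sterol branch was 2120, 2380, 2020 and 1460 from D0 to D10 in experiment 1 and 1860, 1560, 1070 and 1020 in experiment 2. That of the fatty acid branch was 2730, 2520, 2620 and 2000 from D0 to D10 in experiment 1 and 2550, 1890, 1480 and 1510 in experiment 2. Both D10 sums lay below both D0 sums in each branch, and the experiments were furthest apart at D7. All 18 sterol branch genes had, at D10 against D0, a fitted change below 0, with a median of -0.63, and 17 of them were below D0 in each experiment, the exception being TM7SF2. In the fatty acid branch the median was -0.38, and 7 of 9 genes were lower in both experiments. The regulators had a median of 0.01 and the uptake and transport genes one of 0.04, and the median over all 13798 genes was 0.00.

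In all, 28 of the 36 genes were lower at D10 in both experiments, where 32.3% of all genes tested were, and 4 were higher in both, where 31.1% were. In 22 of the 36 genes both D10 libraries lay below both D0 libraries, against 16% of all genes, and these were 14 of the sterol branch, 6 of the fatty acid branch, INSIG1 and NPC2. Both D10 libraries lay above both D0 libraries in NPC1 and ABCA1, 2 of 36, against 15% of all genes. The genes were chosen with earlier results of these data known, so these shares are a description and were not tested.

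**Figure D1:**
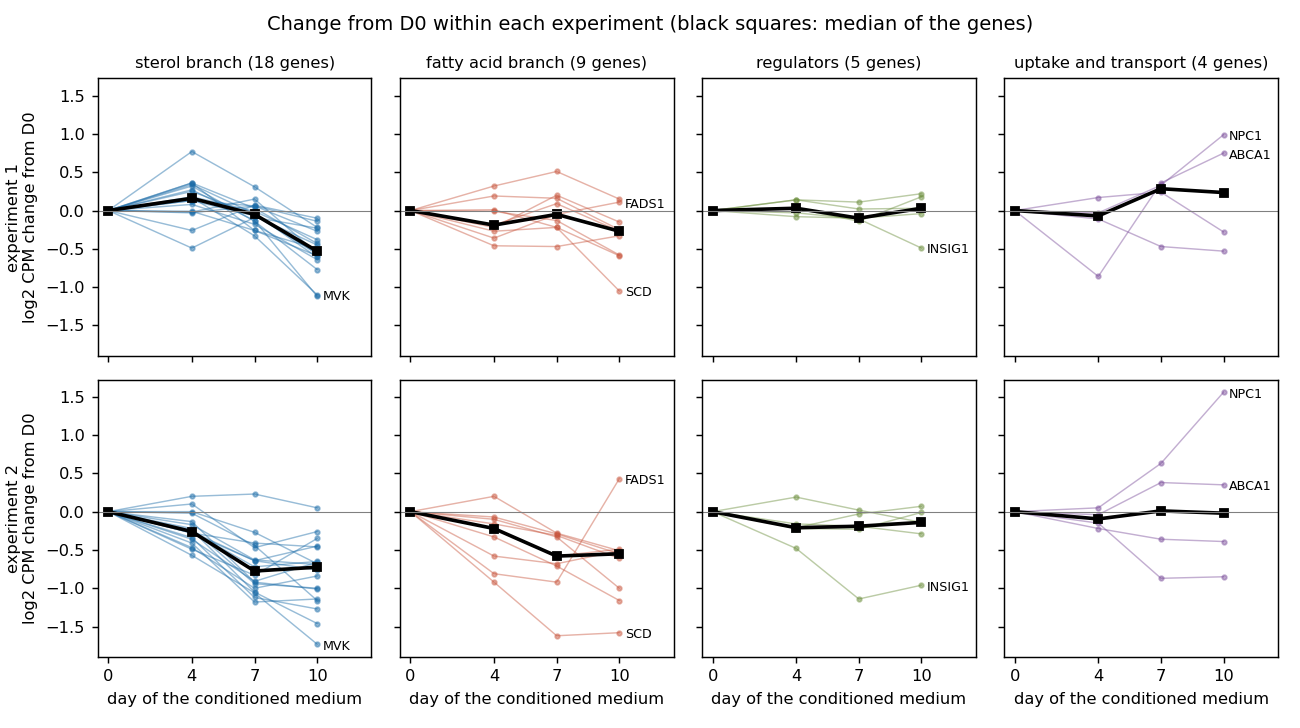
Change in log2 CPM from D0 (y axis) against the day of the conditioned medium (x axis) for the 36 tested genes, by role (columns) and experiment (rows); thin lines are genes and black squares their median. The sterol branch median of experiment 1 was 0.16 at D4, -0.05 at D7 and -0.53 at D10, and that of experiment 2 was -0.26, -0.78 and -0.73.

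The test by group called none of the 36 genes at D10, where it called 40 of all genes (0.29%). Their lowest adjusted p was 0.0744, for NPC1, and 7 of 36 had an unadjusted p under 0.05, against 7.94% of all genes. With the replicate block, 7 of the 36 were called, where 688 of all genes were (4.99%). MVK, MVD and ACAT2 of the sterol branch and SCD, ACSS2 and FADS2 of the fatty acid branch fell, 6 genes, where 2.45% of all genes fell, and NPC1 rose, where 2.54% rose. DESeq2, the tool named for the study, called SCD and NPC1 without a block, 2 of 37 genes, where it called 2.17% of 17494. With the replicate block, a fit chosen after seeing the data, DESeq2 called 13 of the 37, where it called 6.66% of 14272. These were the 7 genes of the blocked edgeR test with HMGCS1, FDPS, LSS, MSMO1, DHCR7 and ABCG1. Called genes change with the libraries used: without D0 of experiment 2 the blocked edgeR test called none of the 37 genes and 113 of all genes. It called 11 of the 37 without D10 of experiment 1, with 1906 of all genes, and 11 without D10 of experiment 2, with 896 of all genes. MVK, ACAT2 and NPC1 were called in 7 of those 8 fits, all but the one without D0 of experiment 2. MVD, SCD and ACSS2 were called in fewer of them, and FADS2 only where a D10 library was left out.

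**Figure D2:**
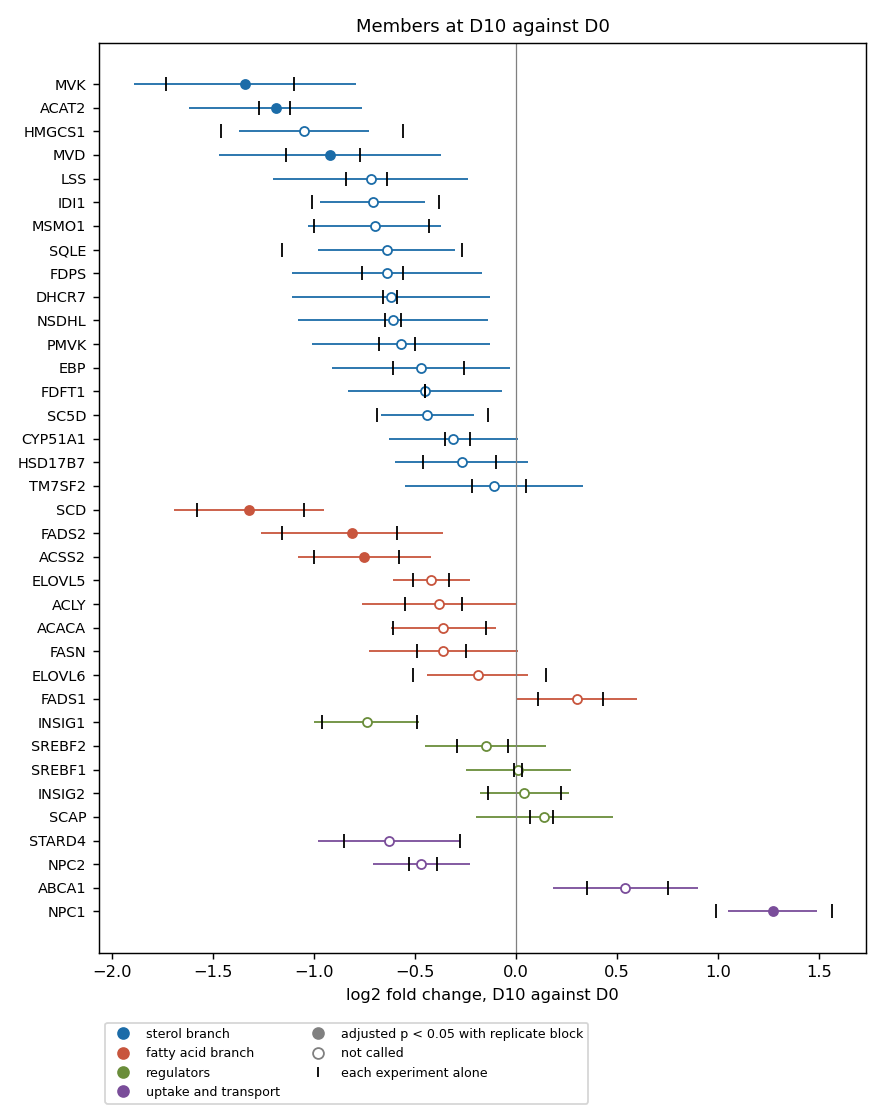
Log2 fold change at D10 against D0 (x axis) for each tested gene, with its standard error as a bar, both from the fit by group. Black ticks are the value of each experiment alone. Filled circles were called in the other fit, the one with the replicate block, and open ones were not. All 18 sterol branch genes sit below 0, from -1.34 for MVK to -0.11 for TM7SF2, and NPC1 sits at 1.27.

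In the sterol branch, the genes with the 4 lowest fitted changes were those of the thiolase, HMG-CoA synthase, mevalonate kinase and mevalonate diphosphate decarboxylase. MVK (ENSG00000110921.13, chr12:109573255-109598117, plus strand) encodes mevalonate kinase, which adds the first phosphate to mevalonate, and its promoter is the one with 5 CCAAT words printed above. Its CPM was 40.1, 45.2, 31.9 and 18.7 from D0 to D10 in experiment 1 and 29.7, 19.9, 14.2 and 8.83 in experiment 2. Both D10 libraries lay below all other libraries of their own experiment. The fitted change at D10 was -1.34 (SE 0.55, adjusted p = 0.565 by edgeR's quasi-likelihood test), and with the replicate block it was -1.44 (SE 0.21, adjusted p = 0.00701).

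ACAT2 (ENSG00000120437.8, chr6:159760328-159779055, plus strand) encodes the cytosolic thiolase that joins 2 acetyl-CoA at the entry to the pathway. Its CPM was 123, 148, 113 and 56.5 from D0 to D10 in experiment 1 and 106, 84.1, 48.9 and 43.9 in experiment 2. The D10 pair lay below the D0 pair without overlap, and in experiment 2 most of the difference was present at D7. The change was -1.19 (SE 0.43, adjusted p = 0.44 by edgeR's test), and -1.21 (SE 0.23, adjusted p = 0.0199) with the block. Of the ACAT2 exon bases 52.3% are overlapped by genes on the opposite strand, SOD2 and TCP1 among them, and the strand setting of the counting is not given in the sources used here. SOD2 went the other way, with CPM 167 and 224 at D0 and 850 and 1720 at D10, and TCP1 had 173 and 171 at D0 and 170 and 164 at D10.

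MVD (ENSG00000167508.11, chr16:88651935-88663161, minus strand) encodes the decarboxylase that turns mevalonate diphosphate into isopentenyl diphosphate. Its CPM was 109, 136, 98.8 and 63.6 from D0 to D10 in experiment 1 and 80.9, 60.6, 35.5 and 36.7 in experiment 2. Experiment 1 was above its D0 value at D4 and experiment 2 below, and both were below D0 at D10. The change was -0.92 (SE 0.55, adjusted p = 0.882 by edgeR's test), and -0.98 (SE 0.23, adjusted p = 0.0484) with the block, close to the threshold.

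HMGCS1, the synthase that makes HMG-CoA, behaved otherwise at D0. Its CPM was 94, 92.7, 104 and 63.7 from D0 to D10 in experiment 1 and 155, 131, 74.8 and 56.2 in experiment 2, so experiment 2 was the higher one with D0 medium and the lower one with D7 medium. The D10 change was -1.05 (SE 0.32, edgeR adjusted p = 0.299), and -1.03 with the block (adjusted p = 0.072), while DESeq2 with the block called it (adjusted p = 0.0103). PMVK, which adds the second phosphate to mevalonate, had a change of -0.57 (edgeR adjusted p = 0.998, and 0.075 with the block). IDI1, which isomerises isopentenyl diphosphate, had CPM 105 and 137 at D0 and 80.8 and 68 at D10, a change of -0.71 (edgeR adjusted p = 0.456).

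Calls of the genes beyond isopentenyl diphosphate differed between the tools. With the block, edgeR called none of them and DESeq2 called FDPS (adjusted p = 0.0205), LSS (adjusted p = 0.0226), MSMO1 (adjusted p = 0.0391) and DHCR7 (adjusted p = 0.0475). FDPS, which makes farnesyl diphosphate, had CPM 251 and 177 at D0 and 170 and 105 at D10, a change of -0.64. FDFT1 and SQLE, the squalene synthase and squalene epoxidase, had changes of -0.45 and -0.64, and SQLE had CPM 163 and 156 at D0 and 135 and 69.7 at D10. Each of the 3 was below D0 in both experiments, with -0.45 in each of them for FDFT1.

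LSS, which closes squalene epoxide to lanosterol, had CPM 287, 304, 253 and 184 from D0 to D10 in experiment 1 and 216, 155, 107 and 120 in experiment 2, a change of -0.72 (SE 0.48, adjusted p = 0.949 by edgeR's test, and 0.0852 with the block). Of the genes that turn lanosterol into cholesterol, MSMO1 had a change of -0.70, DHCR7 -0.62, NSDHL -0.61, EBP -0.47 and SC5D -0.44. CYP51A1, HSD17B7 and TM7SF2 were closest to 0, at -0.31, -0.27 and -0.11. CYP51A1 and HSD17B7 were counted at only 3.87 to 6.99 and 3.86 to 5.88 CPM, while other genes on the same strand overlap 79.4% of the CYP51A1 exon bases, and 14.2% of the 50-base words of HSD17B7 occur in other genes, among them the pseudogene HSD17B7P2. Their values are uncertain for that reason.

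**Figure D3:**
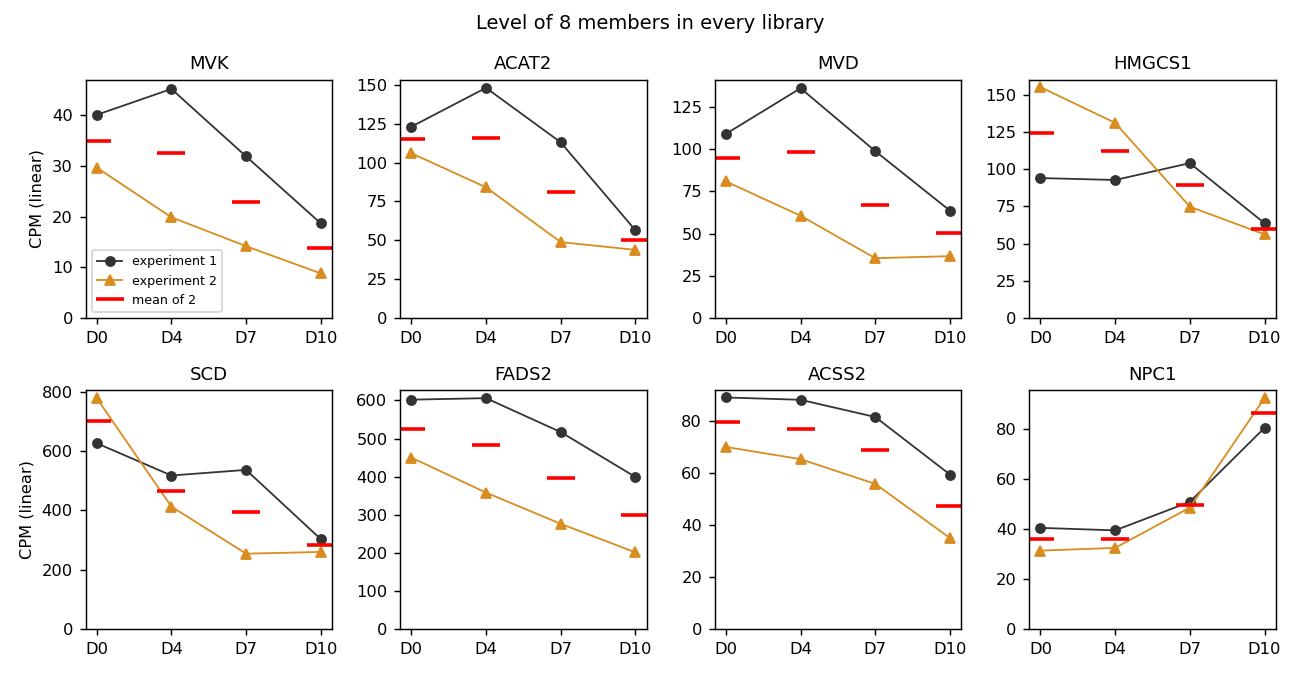
CPM on a linear scale starting at 0 (y axis) in each medium (x axis) for 8 genes; circles are experiment 1, triangles experiment 2 and red bars the mean of both. The 7 genes other than HMGCS1 were called with the block at D10, NPC1 is the one that rose, to 80.4 and 92.3, and MVK had the lowest single value, 8.83 CPM.

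In the fatty acid branch the desaturases SCD and FADS2 and the acetyl-CoA synthetase ACSS2 fell, and the genes of carbon chain synthesis had changes nearer to 0. SCD (ENSG00000099194.5, chr10:100347124-100364834, plus strand) encodes the stearoyl-CoA desaturase that makes oleate, and it had the highest D0 level per kilobase of exon of all 37 genes, 131 CPM per kilobase. Its CPM was 627, 518, 537 and 303 from D0 to D10 in experiment 1 and 779, 413, 254 and 260 in experiment 2. Every later library lay below both D0 libraries. The D10 change was -1.32 (SE 0.37, adjusted p = 0.245 by edgeR's test), -1.35 with the block (adjusted p = 0.033) and -1.31 by DESeq2 (adjusted p = 0.0278).

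FADS2 (ENSG00000134824.13, chr11:61792980-61867354, plus strand), the delta-6 desaturase of polyunsaturated fatty acids, had CPM 602, 606, 517 and 399 from D0 to D10 in experiment 1 and 450, 358, 276 and 201 in experiment 2. Its D10 pair lay below its D0 pair, and the change was -0.81 (SE 0.45, adjusted p = 0.841 by edgeR's test, and 0.031 with the block, where it was -0.88). FADS1 (ENSG00000149485.18, chr11:61799625-61829318, minus strand), the delta-5 desaturase that acts after FADS2, lies within the span of FADS2 on the other strand, and 4.79% of its exon bases are overlapped by FADS2. Its CPM was 180, 140, 175 and 194 from D0 to D10 in experiment 1 and 224, 128, 118 and 302 in experiment 2, so it was lower than D0 at D4 in both experiments and higher at D10 in both. The D10 change of FADS1 was 0.30 (SE 0.30, edgeR adjusted p = 0.998), the D10 and D0 libraries overlapped, and without D10 of experiment 2 the change was -0.05.

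ACSS2 (ENSG00000131069.19, chr20:34872146-34927962, plus strand), which makes acetyl-CoA from acetate, had CPM 88.9, 88, 81.4 and 59.3 from D0 to D10 in experiment 1 and 69.9, 65.2, 55.7 and 34.9 in experiment 2. The level was lowest at D10 in both experiments. The change was -0.75 (SE 0.33, adjusted p = 0.633 by edgeR's test), and -0.79 (SE 0.15, adjusted p = 0.0181) with the block. ACLY, which makes acetyl-CoA from citrate, had a change nearer to 0, -0.38, with CPM 642 and 472 at D0 and 532 and 323 at D10, and its libraries overlapped.

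ACACA and FASN, the acetyl-CoA carboxylase and the fatty acid synthase, each had a change of -0.36 with no call. FASN had CPM 350, 399, 390 and 295 from D0 to D10 in experiment 1 and 302, 259, 202 and 214 in experiment 2. The elongase ELOVL5 was lower than D0 at D4, as were SCD and FADS1, with D4 changes of -0.59 each. ELOVL5 had CPM 103 and 113 at D0 and already 74.5 and 75.8 at D4. It then had 73.9 and 70.7 at D7 and 81.7 and 79.7 at D10, with little spread between the experiments. Its change was -0.52 at D4, -0.58 at D7 (edgeR adjusted p = 0.758, 0.0955 with the block, and 0.0375 by DESeq2 with the block) and -0.42 at D10. ELOVL6, the elongase that makes stearate from palmitate, had a change of -0.19 at D10 and opposite directions in the experiments.

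Among the regulators, the genes for the SREBP proteins and their escort SCAP were near their D0 levels. SREBF2 had CPM 275 and 219 at D0 and 267 and 179 at D10, SREBF1 had 62.1 and 54.6 at D0 and 63.6 and 54 at D10, and SCAP had 106 and 75.3 at D0 and 121 and 79 at D10. Their D10 changes were -0.15 (SE 0.30), 0.01 (SE 0.26) and 0.14 (SE 0.34), and D0 and D10 overlapped in each. These are RNA levels, and cleavage of the SREBP proteins was not measured. INSIG1, itself a known SREBP target, was the regulator that differed most, with CPM 69.8, 68.2, 64.8 and 49.8 from D0 to D10 in experiment 1 and 92.4, 66.2, 41.7 and 47.6 in experiment 2. Its D10 pair lay below all D0, D4 and D7 libraries but D7 of experiment 2, and the change was -0.74 (SE 0.26, adjusted p = 0.44 by edgeR's test, and 0.104 with the block). INSIG2, its paralogue, stayed between 17 and 21.9 CPM in all 8 libraries.

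Cholesterol handling genes did not move as one. NPC1 (ENSG00000141458.12, chr18:23506184-23586898, minus strand), the lysosomal membrane protein that passes cholesterol out of the lysosome, had CPM 40.4, 39.4, 50.8 and 80.4 from D0 to D10 in experiment 1 and 31.3, 32.4, 48.5 and 92.3 in experiment 2. D4 was at the D0 level, both D7 libraries lay above D0 and D4, and both D10 libraries above D7. The D10 change was 1.27 (SE 0.22, adjusted p = 0.0744 by edgeR's test), 1.28 with the block (adjusted p = 0.00409) and 1.27 by DESeq2 (adjusted p = 9.3e-04). NPC2, the soluble partner that hands cholesterol to NPC1, had CPM 189 and 151 at D0 and 131 and 115 at D10, a change of -0.47 (edgeR adjusted p = 0.794), so its values lay on the other side of D0 from those of NPC1.

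ABCA1, which exports cholesterol to apolipoproteins, had CPM 29.9, 16.4, 38.3 and 50.5 from D0 to D10 in experiment 1 and 37.7, 36.7, 49 and 48 in experiment 2. All D7 and D10 libraries lay above both D0 libraries, with a D10 change of 0.54 (SE 0.36, edgeR adjusted p = 0.952). STARD4, which carries sterol through the cytosol, had CPM 38.1 and 73 at D0 and 31.3 and 40.5 at D10, and the groups overlapped. ABCG1, a cholesterol exporter to HDL, had 1, 7, 3 and 7 counts from D0 to D10 in experiment 1 and 5, 6, 7 and 56 in experiment 2. Only D10 of experiment 2 stood out, and the other D10 library had no more counts than a D4 library. ABCG1 was called at D10 without a filter on low counts (edgeR adjusted p = 0.0262) and by DESeq2 with the block (adjusted p = 0.0426), but not by DESeq2 without it (adjusted p = 0.137).

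At D4 and D7 no member was called by edgeR with or without the block. At D4 the test by group called 0 of all genes (0%) and the blocked test 0.275% of them, and at D7 they called 0% and 1.25%. An unadjusted p under 0.05 was seen in 1 of the 36 genes at D4, against 409 of all genes (2.96%). At D7 it was seen in 2 of the 36, against 599 of all genes (4.34%). DESeq2 without the block called 0 of the 37 genes on both days, and 44 and 112 of all genes. With the block it called 0 of the 37 at D4, where it called 1.55% of all genes, and ELOVL5 alone at D7, where it called 2.37%. Genes lower in both experiments were 15 of 36 at D4, where 28.9% of all genes were, and 21 of 36 at D7, where 31% were.

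The sterol branch ran through the days differently in the experiments. At D4, 11 of its 18 genes were above their D0 level in experiment 1 and below it in experiment 2, and at D7 experiment 2 had reached a median change of -0.78 while experiment 1 stood at -0.05. The day of the highest level was D4 in 13 of 18 genes in experiment 1, and D0 in 16 of 18 in experiment 2. The day of the lowest level was D10 in 16 of 18 genes in experiment 1, and D10 in 10 and D7 in 7 in experiment 2. With 1 library per day in each experiment, this difference in timing has no replicate and was not tested. The fatty acid branch had medians of -0.05 at D7 in experiment 1 and -0.58 in experiment 2, and -0.27 and -0.55 at D10.

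D10 was also compared with D4, from the same fit to all 8 libraries. The D0 libraries are not compared in this step but share in its scaling and its estimate of the spread. Its D10 libraries are those compared with D0, so these comparisons are not independent. The sterol branch median was -0.69, with 16 of 18 genes lower in both experiments, and the fatty acid branch median was -0.37. The test by group called none of the 36 genes, where it called 1 of all genes (0.00725%). An unadjusted p under 0.05 was seen in 7 of the 36 and in 786 of all genes (5.7%). DESeq2 without a block called NPC1, where it called 149 of all genes. The blocked test called 5 of the 36, where it called 2.55% of all genes: MVK, PMVK, ACAT2 and ACSS2 fell and NPC1 rose. PMVK had CPM 45.5 and 22.7 at D4 and 24.9 and 14.1 at D10, a change of -0.80 (edgeR adjusted p = 0.961, and 0.0409 with the block). FADS1 had a change of 0.89 from D4 to D10, which edgeR did not call (adjusted p = 0.676, and 0.128 with the block) and DESeq2 with the block called (adjusted p = 0.0365). DESeq2 with the block called 13 of the 37 genes in this step, where it called 5.21% of all genes. They were the blocked edgeR calls and HMGCS1, MVD, IDI1, FDPS, MSMO1, FADS1, FADS2 and ABCA1.

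The experiments also differed in level whatever the medium. In the blocked fit, 18 of the 36 genes were lower in experiment 2, where 16.2% of all genes were, and 0 were higher, where 18.6% were. At an unadjusted p under 0.05 in edgeR's test, 21 of the 36 were lower and 2 were higher, and 3038 and 3299 of all 13798 genes were. These 18 were 11 genes of the sterol branch, 4 of the fatty acid branch and 3 regulators. The median difference, experiment 2 minus experiment 1, was -0.70 in the sterol branch, -0.33 in the fatty acid branch, -0.35 in the regulators and 0.15 in the uptake and transport genes, against 0.01 over all genes. In the sterol branch it went from -0.39 with D0 medium through -0.86 and -0.89 to -0.44 with D10 medium, so it was least with the first and the last medium.

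**Figure D4:**
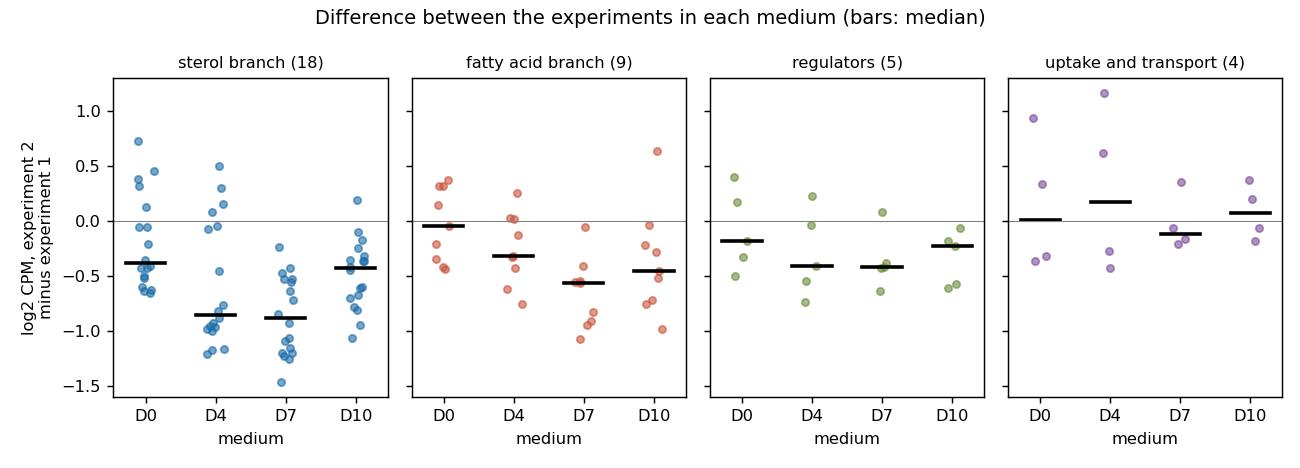
Log2 CPM of experiment 2 minus that of experiment 1 (y axis) in each medium (x axis) for the 36 tested genes by role; points are genes, spread sideways for visibility, and black bars are medians. The sterol branch medians are -0.39, -0.86, -0.89 and -0.44 from D0 to D10.

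Within the sterol branch the genes did not differ alike between the experiments. MVK, MVD, FDPS, LSS, NSDHL, DHCR7, PMVK, FDFT1, SQLE, TM7SF2, HSD17B7, EBP and ACAT2 were lower in experiment 2 with every medium. HMGCS1, IDI1 and SC5D were higher in experiment 2 at D0 and D4 and lower at D7 and D10. MSMO1 was higher in experiment 2 only at D0, and CYP51A1 was lower only at D7. At D0 the difference was 0.72 for HMGCS1, 0.38 for IDI1 and 0.45 for SC5D, against -0.43 for MVK, -0.43 for MVD and -0.60 for DHCR7. STARD4, INSIG1 and SCD were also higher in experiment 2 at D0, by 0.93, 0.40 and 0.31, and at D7 their differences were -0.17, -0.64 and -1.08. The genes were picked for these differences, each of which compares 2 libraries, so they are a description and were not tested.

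The wider pathways were read from lists of further genes. Of 21 other sterol genes 19 were tested, and at D10 none was called by the test by group and 1 fell with the block, TMEM97, the sigma-2 receptor, which is known to bind NPC1. TMEM97 had CPM 38.5, 20, 17.2 and 10.3 from D0 to D10 in experiment 1 and 48.2, 14.8, 8.51 and 12.9 in experiment 2, a change of -1.90 (SE 0.36, adjusted p = 0.0834 by edgeR's test, and 0.0104 with the block). All later libraries of TMEM97 lay below both D0 libraries. The median of the 19 genes was 0.06, with 6 lower in both experiments and 6 higher. Of 24 other fatty acid genes 21 were tested, none was called by group, and with the block LPCAT3 and HACD1 fell and ACSL4 rose. Their median was -0.27, with 13 lower in both experiments and 3 higher. ACSL4, which activates arachidonate, had CPM 137 and 232 at D0 and 372 and 1460 at D10, a change of 2.31 (edgeR adjusted p = 0.301, and 0.0065 with the block), and D10 of experiment 2 was far above the other D10 library. LPCAT3, which places polyunsaturated fatty acids in phospholipids, and HACD1, a dehydratase of fatty acid elongation, had changes of -0.87 and -0.84 (adjusted p = 0.00867 and 0.0398 with the block). The other genes with the highest and lowest changes were VLDLR at 0.47, NR1H2 at 0.33 and LPIN1 at -0.71 in the sterol list and FADS3 at 0.45, FABP3 at -2.09 and ELOVL2 at -1.41 in the fatty acid list, none of them called with or without the block.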

How the data were processed

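RNA from 8 libraries was analysed, in 4 groups of 2. The authors deposited counts of reads per gene, not normalized, together with RPM values, which equal the counts per 1000000 within 0.005 and were not tested. Per the labels, libraries were poly(A)-selected and stranded. The submitters' processing notes name STAR 2.5, DESeq2 and GRCh38. The strand setting and the annotation are not given in the sources used here, and a gene with an opposite-strand neighbour can share its reads. Positions come from GENCODE 29, and promoters from RefSeq on GRCh38.p14. The genes and lists were chosen with earlier results of these data known.

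The 13798 genes kept by filterByExpr were tested with edgeR 4.0.16 under R 4.3.3 (TMM scaling, glmQLFit, then glmQLFTest), in 1 fit by group over the 8 libraries, with Benjamini-Hochberg adjustment and a threshold of 0.05. Standard errors were worked out from the F statistic of the quasi-likelihood test. Changes within an experiment are differences in log2 CPM with a prior count of 2. Named genes are all 37 members and, of the other lists, those called and the 2 highest and 2 lowest changes at D10. The replicate numbers pair the libraries: the labels and methods describe 2 independent experiments, and libraries of 1 number deviated together from the means of their groups, with correlations across genes of 0.418 to 0.722 in all 6 pairs of groups. Whether the 2 libraries of a group came from separate cultures beyond that is not stated. The common dispersion was 0.0792 by group and 0.0242 with the replicate block. Alternatives were DESeq2 1.42.0 and its size factors, other filters, the compared groups only, the replicate block, a minimum fold of 2 and leaving out each library. The code was tested on simulated counts. Total counts of 11708193 to 13395912 set the precision, which is lowest for genes of few counts such as ABCG1. Figures were drawn with Python 3.11.15.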

Additional observations from a re-analysis of the deposited data

How the results depend on the processing

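With 2 libraries per group, the calls depend on how the spread is estimated, and the directions of the branches at D10 do not depend on any single alternative tried. Members called at D10 were 0 by group, 2 with DESeq2, 3 with no filter on low counts (ABCG1, NPC1 and SCD) and 7 with the replicate block, and at D10 against D4 they were 0, 1, 1 and 5. All genes called at D4 were 0 by group and 44, 21 and 38 under those 3 alternatives, at D7 0 and 112, 93 and 172, at D10 40 and 379, 371 and 688, and at D10 against D4 1 and 149, 147 and 352. At D10 they were 20 with at least 10 counts in every library and 0 with the compared groups only, and at D10 against D4 6 with DESeq2's size factors and 6 with the compared groups only. Leaving out 1 library gave 0 to 155 genes at D10 (155 without D10 of experiment 1, 0 without either D0 library) and 0 to 83 at D10 against D4 (83 without D10 of experiment 1), with 0 members in each. With a fold change of at least 2, the experiments differed in 0 members and 897 genes, and leaving out 1 library gave 15 to 22 members and 2121 to 5602 genes. The cause of these shifts was not tested.

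The D10 median ranged with 1 library left out from -0.95 to -0.36 in the sterol branch, from -0.62 to -0.14 in the fatty acid branch, from -0.18 to 0.12 in the regulators and from 0.04 to 0.31 in uptake and transport. The highest sterol value came without D10 of experiment 2 and the lowest without D10 of experiment 1. Single genes near 0 at D10 changed sign: TM7SF2 (-0.40 to 0.25), FADS1 (-0.05 to 0.60), ELOVL6 (-0.36 to 0.01), INSIG2 (-0.04 to 0.14), SREBF1 (-0.09 to 0.12), SREBF2 (-0.44 to 0.12) and SCAP (-0.18 to 0.41). The blocked test with 1 library left out, chosen after seeing the data, called 0 to 11 members at D10, 0 without D0 of experiment 2 (113 of all genes), 4 without D7 of experiment 2 (491) and 11 without D10 of experiment 1 (1906) or of experiment 2 (896). DESeq2 with the replicate block, also chosen then, called 13 members and 950 of all genes at D10, 13 and 716 at D10 against D4, 1 and 351 at D7 and 0 and 213 at D4. In edgeR the block changed no other call of a member than those given. Precision is limited for CYP51A1, HSD17B7 and ABCG1, which had few counts. CYP51A1 and HSD17B7 also share exon bases or sequence with other genes, as given above.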
